A study of Mus musculus with 4 samples.

Results

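The small leucine-rich proteoglycans are secreted core proteins built from leucine-rich repeats, many of which carry chondroitin, dermatan or keratan sulfate chains. They bind collagen fibrils and set their spacing and thickness. Several also bind growth factors or receptors, and soluble biglycan is known as a ligand of the toll-like receptors TLR2 and TLR4. In peripheral nerve they belong to the connective tissue layers around and between the axons, where fibroblasts are a main source. The 10 genes described here, Dcn, Bgn, Lum, Fmod, Ogn, Prelp, Aspn, Omd, Kera and Ecm2, were taken by their symbol from a table of 50593 genes, and all 10 are in it.

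The comparison was between sciatic nerve of HSF V30M and HSF WT mice, 6 months old, of strain 129S1/SvImJ by the labels. HSF WT mice lack 1 copy of Hsf1, the gene for heat shock factor 1, and are described as otherwise wild type. HSF V30M mice share this heterozygous Hsf1 deletion and also carry a human TTR V30M transgene in place of a functional mouse Ttr gene. The promoter of the transgene is not given in the sources used here. The labels list 2 mice per group, while the methods state n = 4 for the sequenced nerves, which may be the total. The study made this comparison to ask about the chemokine response in a model of transthyretin amyloidosis, and the proteoglycans were not its subject.

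The table holds 1 FPKM value (fragments per kilobase of transcript, scaled to depth) for each gene in each group, estimated by the authors over the libraries of that group. No value per mouse is given, so the spread between mice is unknown, no test was made, and every difference below is a description of the pooled values. Differences are given as log2((HSF V30M + 1) / (HSF WT + 1)), which understates the change of low genes. In bulk tissue, fewer cells of a type and less RNA per cell cannot be told apart.

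The Schwann cell gene Mbp, which encodes myelin basic protein, read 3854 FPKM for HSF V30M against 3441 for HSF WT, so both groups held RNA of myelinated tissue. Hsf1 read 7.94 FPKM for HSF V30M against 15.0 for HSF WT, although its deletion is heterozygous in both. Ttr read 6.10 FPKM for HSF V30M, where the mouse gene should be null, and 0 for HSF WT. As the table does not tell human from mouse reads, the source of this value is unknown, and Ttr does not check the labels. HSF V30M and HSF WT are used below as names of the labelled groups, and each direction given rests on these labels.

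The promoters of 3 class I genes are shown first. They are Bgn and Aspn, which had the lowest ratios of the family, and Ecm2, whose values were almost equal in the groups. Each is the 250 bases before the transcription start, from RefSeq on GRCm38.p6, written 5′ to 3′ on the plus strand, which is the strand of all 3 genes. The windows are chrX:73483351-73483600 for Bgn, chr13:49544193-49544442 for Aspn and chr13:49504560-49504809 for Ecm2. Capitals mark the motifs that were found.
Bgn: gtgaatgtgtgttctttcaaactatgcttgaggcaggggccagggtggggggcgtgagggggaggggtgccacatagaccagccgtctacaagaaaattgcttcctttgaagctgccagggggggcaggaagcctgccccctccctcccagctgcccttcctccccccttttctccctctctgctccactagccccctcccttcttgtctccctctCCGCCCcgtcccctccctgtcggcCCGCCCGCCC
Aspn: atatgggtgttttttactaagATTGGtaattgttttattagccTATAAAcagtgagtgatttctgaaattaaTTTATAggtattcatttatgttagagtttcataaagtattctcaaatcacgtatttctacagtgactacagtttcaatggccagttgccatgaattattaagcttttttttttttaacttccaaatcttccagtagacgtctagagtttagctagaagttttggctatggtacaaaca
Ecm2: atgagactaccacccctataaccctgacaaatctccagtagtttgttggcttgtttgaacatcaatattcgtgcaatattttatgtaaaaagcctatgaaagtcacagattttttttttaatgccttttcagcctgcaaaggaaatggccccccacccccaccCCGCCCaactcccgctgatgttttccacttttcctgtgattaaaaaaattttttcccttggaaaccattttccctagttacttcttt

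The TATA box was searched as TATAAA and the GC box as GGGCGG, each on both strands. Also searched were the CCAAT box by its own letters and the AP-1 element as TGANTCA. Paired cores of the heat shock element were searched as GAANNTTC and, in the other orientation, as TTCNNGAA. The Bgn window had 64.4% G and C, more than 81.6% of the 32851 promoter windows of this length, and held 3 GC boxes, all read on the minus strand, 34, 10 and 6 bases before the transcription start, the last 2 of which overlap. A GC box is found in 32.7% of all windows. The Aspn window had 30% G and C and held 2 TATAAA matches, 207 and 178 bases before the start, and 1 CCAAT match at 229, motifs found in 12.4% and 33.8% of all windows. The Ecm2 window had 40% G and C and 1 GC box, 87 bases before the start. Windows were found for 8 of the 10 members, without Dcn and Lum. None of the 8 held an AP-1 element or either heat shock element core, which 6.75%, 6.69% and 7.17% of all windows do. This says only that these letters are not in these windows.

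Of the 10 members, 9 reached a mean of 1 FPKM over both groups and are called detected below. Kera, which encodes the corneal proteoglycan keratocan, is listed at 0 in both groups, where 3 fragments on its 2280-base transcript would have given 0.0663 FPKM for HSF V30M, or 0.0934 for HSF WT. Among the 9 detected members, 6 had a negative log2 ratio and 3 a positive one, and 4 of the 9 lay within 0.02 of 0. The plot of group levels shows the family spread over a wide range, with Dcn far above the rest and Bgn as the member with the widest gap among the abundant ones.

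**Figure D1:**
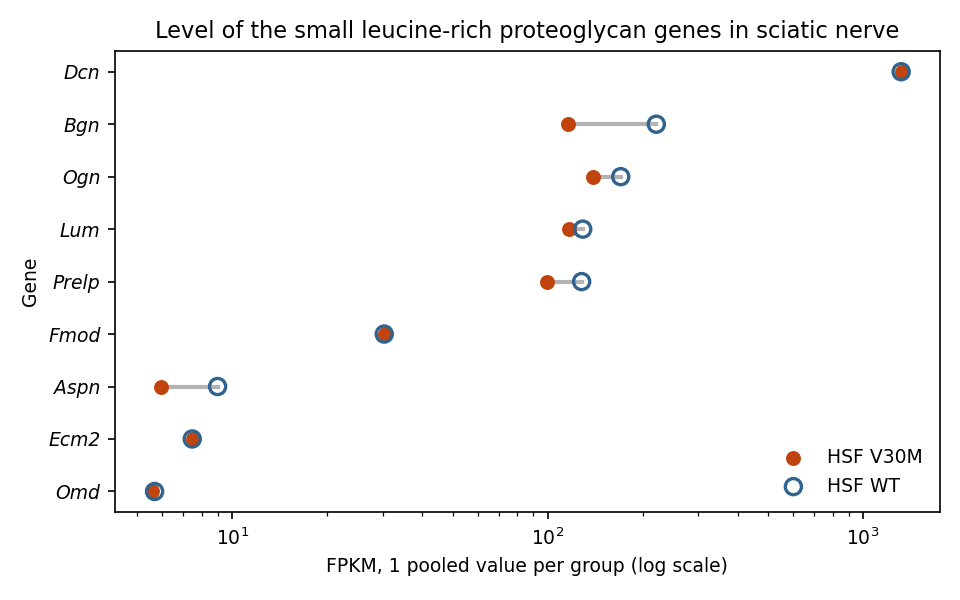
FPKM of the 9 detected members on a log axis, with a filled point for HSF V30M and an open circle for HSF WT, each 1 pooled value per group without error. The circles of Dcn, Fmod, Ecm2 and Omd surround their points, while Bgn lies at 116 for HSF V30M against 221 for HSF WT. Kera, at 0 in both groups, is not drawn.

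Biglycan, encoded by Bgn (ENSMUSG00000031375, GRCm38 chromosome X, 73483602 to 73495933, plus strand, 8 exons in its longest coding transcript), is a class I member that usually carries a pair of chondroitin or dermatan sulfate chains. Bgn read 116 FPKM for HSF V30M against 221 for HSF WT, so that the HSF V30M level was 52.4% of the HSF WT level. The log2 ratio was -0.93. Counted as fragments, the values stand for at least 655 and 888, and the 95% interval of the log2 ratio from counting error alone was -1.07 to -0.78. This interval does not hold the spread between mice.

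Bgn was the only one of the 9 detected members past a fold of 1.5 on FPKM + 1 in the lower direction, and no member was past it in the higher direction. Among the 15620 detected genes of the table, 16.7% were past this fold, 8.44% in the lower direction and 8.22% in the higher one, so a count of 1 member in 9 is near that background. Over the 12715 protein-coding genes among them the shares were 5.32% and 5.03%, and over the 797 genes that reached a mean of 100 FPKM they were 8.78% and 18.3%. Over the 10205 genes at a mean of 5 FPKM or more, which all 9 members reach, they were 6.33% and 7.17%. Of the 15620 genes, 4.46% had a lower ratio than Bgn, and so did 44 of the 797, or 5.52%. With a pseudocount of 0.1, Aspn joined Bgn past the fold, where the background was 10.8% lower and 10.9% higher. Past a fold of 2 lay no member, beside 3.94% and 3.98% of genes. The plot of members among all genes places Bgn below the dashed line and the other 8 members above it.

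**Figure D2:**
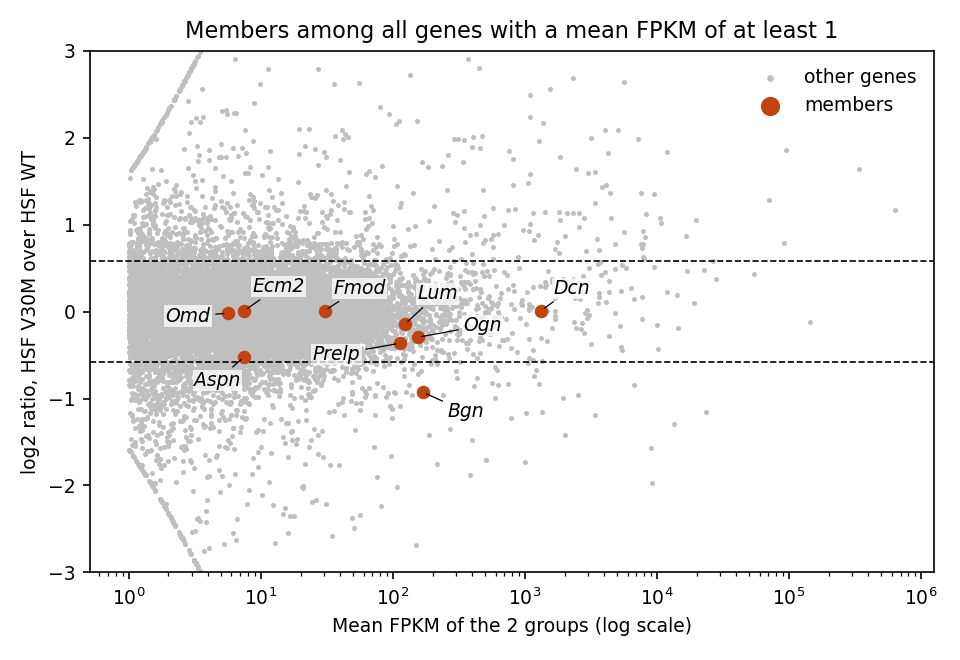
Log2 ratio, HSF V30M relative to HSF WT, plotted against the mean FPKM of the groups (log axis), for the 15620 detected genes, each point 1 gene, with the 9 members in colour and the others in grey. Dashed lines mark a fold of 1.5 in each direction, and Bgn is the only member outside them. Not drawn are 361 genes beyond a log2 ratio of 3.

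Decorin, encoded by Dcn (ENSMUSG00000019929, chromosome 10, 97479609 to 97518143), is the class I member closest in structure to biglycan, carries a single chain, and is known to bind TGF-beta and the receptors Egfr and Met. Dcn read 1331 FPKM for HSF V30M against 1320 for HSF WT, with a log2 ratio of 0.01. It ranked 14 among 21759 protein-coding genes in HSF V30M and 19 in HSF WT. The ratio of Dcn was 0.94 above that of Bgn on the log2 scale. Per 100 FPKM of Dcn there were 8.70 FPKM of Bgn in HSF V30M and 16.7 in HSF WT.

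Asporin, encoded by Aspn (ENSMUSG00000021388, chromosome 13, 49544443 to 49567565), is a class I protein without glycosaminoglycan chains that binds collagen and TGF-beta. Aspn read 5.96 FPKM for HSF V30M against 8.99 for HSF WT, or 274 to 326 fragments against 293 to 398. Its log2 ratio of -0.52 lay just inside the fold of 1.5, which is 0.58 on this scale, and the counting interval was -0.76 to -0.28. Without a pseudocount the fold of HSF WT over HSF V30M was 1.51, just outside. Ecm2 (chromosome 13, 49504810 to 49532789), which encodes a related leucine-rich matrix protein, had 7.53 for HSF V30M against 7.47 for HSF WT, a log2 ratio of 0.01.

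The class II members include the keratan sulfate proteoglycans lumican and fibromodulin, which shape collagen fibrils. Lum (ENSMUSG00000036446, chromosome 10, 97565128 to 97572703) read 117 FPKM for HSF V30M against 129 for HSF WT, with a log2 ratio of -0.15 and a counting interval of -0.20 to -0.09. Fmod (ENSMUSG00000041559, chromosome 1, 134037254 to 134048277) had 30.6 for HSF V30M against 30.3 for HSF WT, a log2 ratio of 0.01. The values of Fmod were thus almost equal, and those of Lum differed by less than a fold of 1.5.

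Prelp (ENSMUSG00000041577, chromosome 1, 133910304 to 133921414, minus strand) encodes an arginine- and proline-rich member that binds collagen and heparan sulfate. It read 99.4 FPKM for HSF V30M against 128 for HSF WT, and its log2 ratio was -0.36 with a counting interval of -0.48 to -0.25. Omd (chromosome 13, 49582462 to 49592822) encodes osteomodulin, known from bone, and had 5.59 for HSF V30M against 5.68 for HSF WT. These stand for 165 to 294 and 119 to 242 fragments. The log2 ratio of Omd was -0.02, with a counting interval of -0.36 to 0.32, and differences inside this interval were not detectable at this depth.

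Osteoglycin or mimecan, the class III member encoded by Ogn (ENSMUSG00000021390, chromosome 13, 49608046 to 49624501), read 139 FPKM for HSF V30M against 170 for HSF WT. Its log2 ratio was -0.29, with a counting interval of -0.34 to -0.25. In all, 5 members had a counting interval that does not include 0, namely Bgn, Aspn, Prelp, Ogn and Lum, and each of them was lower in HSF V30M. By the same criterion, 8.95% of the detected genes with an interval were lower and 10.1% higher. These shares grow with the level, since intervals narrow: they were 11.5% and 13.6% from a mean of 5 FPKM and 29.7% and 43.9% from a mean of 100 FPKM, which Bgn, Prelp, Ogn, Lum and Dcn reach. An interval that leaves out 0 was thus common at the level of Bgn, Prelp, Ogn and Lum. Aspn, at a mean of 7.48 FPKM, reaches only the level of 5 FPKM, where such intervals were less common. The plot of ratios by member shows them in order.

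**Figure D3:**
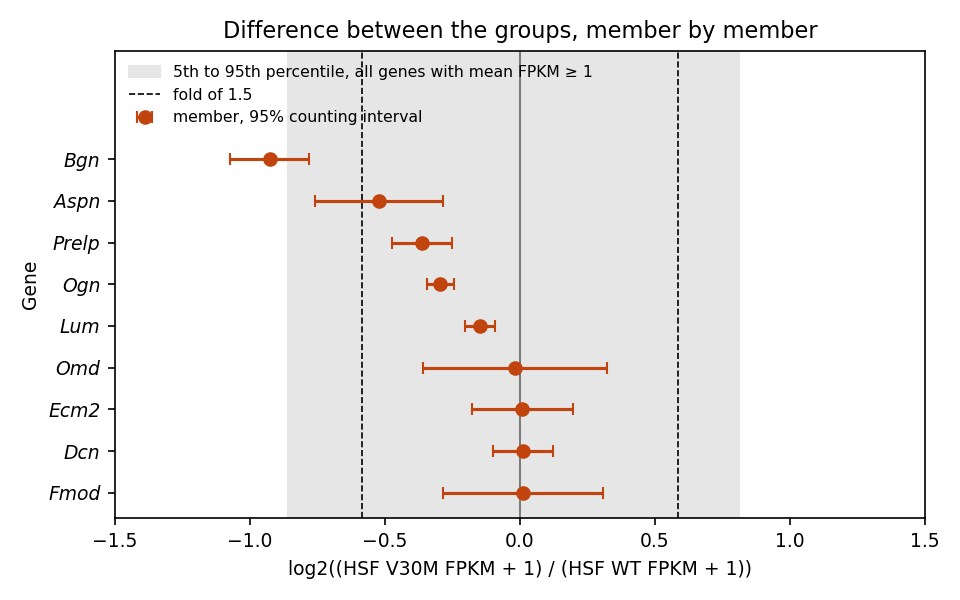
Log2 ratio, HSF V30M relative to HSF WT, on FPKM + 1 for the 9 detected members, with bars for the 95% interval from counting error alone, taken from the lowest number of fragments. The grey band holds the 5th to 95th percentile of all genes at a mean of 1 FPKM or more, from -0.86 to 0.81, and dashed lines mark a fold of 1.5. Bgn lies at -0.93, left of the band, and the other members lie inside it between -0.52 and 0.01. The band is not matched to level: of the 797 genes at a mean of 100 FPKM or more, 5.52% had a lower ratio than Bgn.

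The median log2 ratio of the 9 detected members was -0.15, beside 0.00 over the 15620 genes and 0.07 over the 797 most abundant genes above. Without Bgn, the median of the other 8 was -0.08. By class, the medians were -0.26 for the 4 detected class I members and -0.08 for the 4 of class II. Ogn, the only member of class III, was at -0.29. Class I thus held Dcn, at 0.01, as well as Bgn, at -0.93.

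Summed over the family, the FPKM was 1851 for HSF V30M against 2022 for HSF WT, or 91.6% of the HSF WT sum. Bgn made up 105 of the 171 FPKM by which the sums differed, which is 61.6%. The share of Dcn was 71.9% for HSF V30M against 65.3% for HSF WT. With Dcn left out, the sum was 520 against 701, and with Bgn left out as well it was 404 against 480, or 84.2%.

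The order of the levels differed between the groups in the middle of the family. In HSF WT it was Dcn, Bgn, Ogn, Lum, Prelp, Fmod, Aspn, Ecm2 and Omd. In HSF V30M, Bgn came after Ogn and Lum, and Ecm2 came before Aspn. Lum and Bgn, at 117 and 116, lay next to each other in HSF V30M. Since no spread between mice is known, neighbours in either order cannot be said to differ. Of the family without Dcn, Bgn held 22.3% for HSF V30M against 31.5% for HSF WT, as the plot of shares shows.

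**Figure D4:**
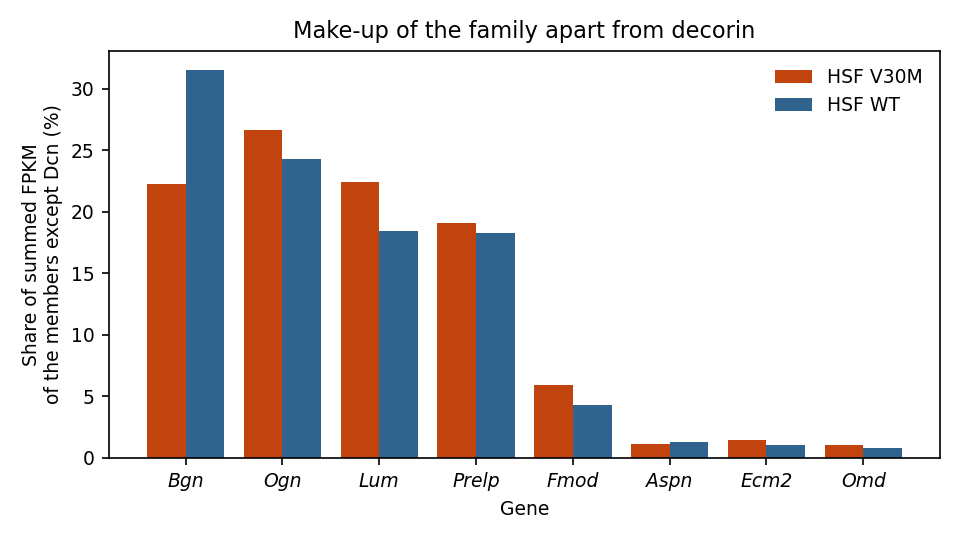
Share of each member in the summed FPKM of the detected members other than Dcn, in percent, with 1 bar per group. The share of Bgn was 22.3% for HSF V30M against 31.5% for HSF WT. That of Aspn was also lower in HSF V30M, and the shares of the other 6 genes were higher there, with Ogn at 26.7% against 24.3%.

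The family is arranged in clusters, a feature the choice of genes did not use. On chromosome 13, Ecm2, Aspn, Omd and Ogn follow each other within 120 kb on the plus strand, with gaps of 11.7, 14.9 and 15.2 kb. Their log2 ratios ran from -0.52 for Aspn to 0.01 for Ecm2, its direct neighbour. On chromosome 10, Dcn, Lum and Kera lie within 134 kb, with log2 ratios of 0.01 for Dcn and -0.15 for Lum and 0 in both groups for Kera. Epyc, a related gene outside the 10, follows Kera after 30.4 kb and had a log2 ratio of 0.85. Prelp and Fmod lie 116 kb apart on chromosome 1, with ratios of -0.36 and 0.01. Bgn is the only one of the 10 on chromosome X. The direct neighbours Aspn and Ecm2 thus differed by 0.53 on the log2 scale, with no spread between mice to set this against. All 4 genes of the chromosome 13 cluster lie inside the span of Cenpp, which is annotated on the opposite strand from 49464023 to 49652785 and read 0.800 FPKM for HSF V30M against 1.20 for HSF WT. Whether the counting used strand is not given in the sources used here, so reads of Cenpp cannot be fully told apart from theirs.

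Of 8 further leucine-rich repeat matrix genes of the same superfamily, 4 were detected, all with positive log2 ratios. Of these, 2 were past the fold, both higher in HSF V30M, beside 8.22% of all detected genes. Chadl, which encodes a chondroadherin-like collagen-binding protein, read 12.4 FPKM for HSF V30M against 4.23 for HSF WT, a log2 ratio of 1.35. Epyc, which encodes the cartilage proteoglycan epiphycan and follows Kera in the chromosome 10 cluster, had 6.15 and 2.98, a log2 ratio of 0.85. Podn, which encodes podocan, had 30.1 for HSF V30M against 24.2 for HSF WT, and Tsku, which encodes tsukushi, 5.48 and 5.23. Their log2 ratios were 0.30 and 0.06, and counting error of ± 0.46 and ± 1.05 alone covers 0. At a minimum mean of 5 FPKM, 1 of 3 genes was past the fold in the higher direction, beside 7.17% of genes. The median over these 4 genes was 0.57, while the members' median was -0.15. The negative median of the members was thus not seen in these 4 related genes, although Podn and Tsku lay within counting error of 0.

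The chains on decorin and biglycan are built in the Golgi by a series of enzymes, of which 24 were listed and 21 were detected. Xylt1, one of the xylosyltransferases that begin the chain, was the only one past the fold, with an FPKM of 1.57 for HSF V30M against 3.61 for HSF WT. Its log2 ratio was -0.84, with a counting error of ± 0.78. Xylt1 falls below a minimum mean of 5 FPKM and was not past a fold of 2. The other xylosyltransferase gene, Xylt2, had 10.9 and 10.8. Dse, which encodes the epimerase that makes dermatan sulfate, had 19.9 for HSF V30M against 27.3 for HSF WT. Its log2 ratio of -0.44 lay inside the fold, and counting error of ± 0.75 alone covers 0. Papss1, which makes the sulfate donor, had a log2 ratio of -0.35, and the sulfotransferase gene Chst12 one of -0.12. The median of the list was -0.03, with 14 genes below 0 and 7 above, of which Chpf2 was highest at 0.50. The 1 gene of 21 past the fold stood beside 8.44% of all detected genes in the lower direction. Of the keratan sulfate enzymes, 5 of 8 were detected, and B3gnt2 was past the fold, with 13.1 for HSF V30M against 8.21 for HSF WT, while Chst1 and B4galt1 had log2 ratios of 0.20 and 0.05.

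Among 10 genes of fibrillar, fibril-associated and type VI collagens, Col5a2 was past the fold, with an FPKM of 33.7 for HSF V30M against 55.3 for HSF WT, and none was past it in the higher direction. Col5a2 encodes a chain of type V collagen, which starts fibril growth. Col3a1 had 219 for HSF V30M against 317 for HSF WT, a log2 ratio of -0.53. Col1a1 and Col1a2, the chains of type I collagen, had log2 ratios of 0.26 and 0.13. The median over the list was -0.29, with 6 genes below 0 and 4 above.

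Of 17 signalling partners and receptors in the table at a mean of 1 FPKM or more, Met was past the fold, with 6.16 for HSF V30M against 12.1 for HSF WT, a log2 ratio of -0.87. Tlr4 and Tlr2, which encode receptors for soluble biglycan, had FPKM values of 8.70 and 2.44 in HSF V30M and 8.57 and 3.44 in HSF WT, with log2 ratios of 0.02 and -0.37. Egfr, a receptor bound by decorin, had a ratio of -0.51. In the other direction, the receptor gene Igf1r had 0.51 and the TGF-beta gene Tgfb3 0.52. The median of these 17 genes was -0.15, with 11 below 0 and 6 above. Met, 1 of the 17, stood beside 8.44% of all detected genes past the fold in the lower direction. Lrp1, an endocytic receptor, had -0.04 and the purinergic receptor gene P2rx7 had -0.25.

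Among 11 detected genes for proteases and processing factors of the matrix, Mmp3 and Mmp9 were past the fold in the lower direction. Their log2 ratios were -0.70 and -0.61, although for Mmp9 counting error of ± 0.79 alone covers 0. Mmp3 read 3.38 FPKM for HSF V30M against 6.10 for HSF WT, and Mmp9 had 5.12 and 8.37. Pcolce, Mmp2 and Htra1, the most abundant of the list, had log2 ratios of -0.01, -0.33 and -0.24, and Bmp1, which encodes the proteinase that removes the biglycan propeptide, had -0.25.

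Marker lists of the cell types a nerve sample can hold also differed between the pooled values. Of 12 fibroblast markers, 3 of which are also in the collagen list, Dpt and Pi16 were past the fold in the lower direction. Dpt, which encodes the decorin-binding protein dermatopontin, read 33.7 FPKM for HSF V30M against 64.7 for HSF WT, and Pi16, known from adventitial fibroblasts, had 42.4 and 83.0. Their log2 ratios of -0.92 and -0.95 lay next to that of Bgn, while the other 10 fibroblast markers were inside the fold. In the whole list 7 markers were below 0 and 5 above, with a median of -0.06. The summed level of the list was 1325 for HSF V30M against 1442 for HSF WT. The part of fibroblasts in the Bgn value was not tested.

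Of the adipocyte markers, all 6 had negative log2 ratios and 3 were past the fold, with a summed FPKM of 2318 for HSF V30M against 3200 for HSF WT. All 6 detected skeletal muscle markers of the 9 listed were past the fold in the lower direction, with sums of 41.0 and 147. All 5 detected B cell markers of the 6 listed were past it as well, with 3.49 and 29.7. Of 6 macrophage markers 1 was past the fold, Cd68, and the sums were 274 and 368. All 6 neutrophil markers and 3 of 4 detected erythrocyte markers of 5 listed were past the fold in the higher direction, with sums of 104 and 26.3 and of 137 and 45.2. The part of these lists in the values of the members was not tested.

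Tendon, cartilage and bone are tissues in which several of these proteoglycans are abundant. Of 9 tendon and cartilage markers, 6 were detected, of which Cilp and Comp were past the fold in the lower direction, Mkx was past it in the higher direction, and Matn3 was at 0 in both groups. The tendon genes Tnmd and Scx were at 0.220 and 0.420 in HSF V30M and at 0.140 and 0.138 in HSF WT. The summed level of the list was 201 for HSF V30M against 242 for HSF WT, most of it Thbs4, with 158 and 181. Of 6 bone markers, only Alpl was detected, with 4.69 and 13.8, a log2 ratio of -1.38 with a counting error of ± 1.52, and the osteocalcin gene Bglap was at 0 in both groups. The sums of the bone list were 5.37 and 14.4. The nerve's own cells were covered by the last lists. Of 8 perineurial markers, Msln was higher and Moxd1 lower past the fold, and the sums were 544 and 463. Of 11 Schwann cell markers, S100b was past the fold in the higher direction, and the sums were 7963 and 7416. Of the 42 genes past the fold in all 18 lists, 8 had a ratio that counting error alone covers. The plot of gene lists sets these side by side.

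**Figure D5:**
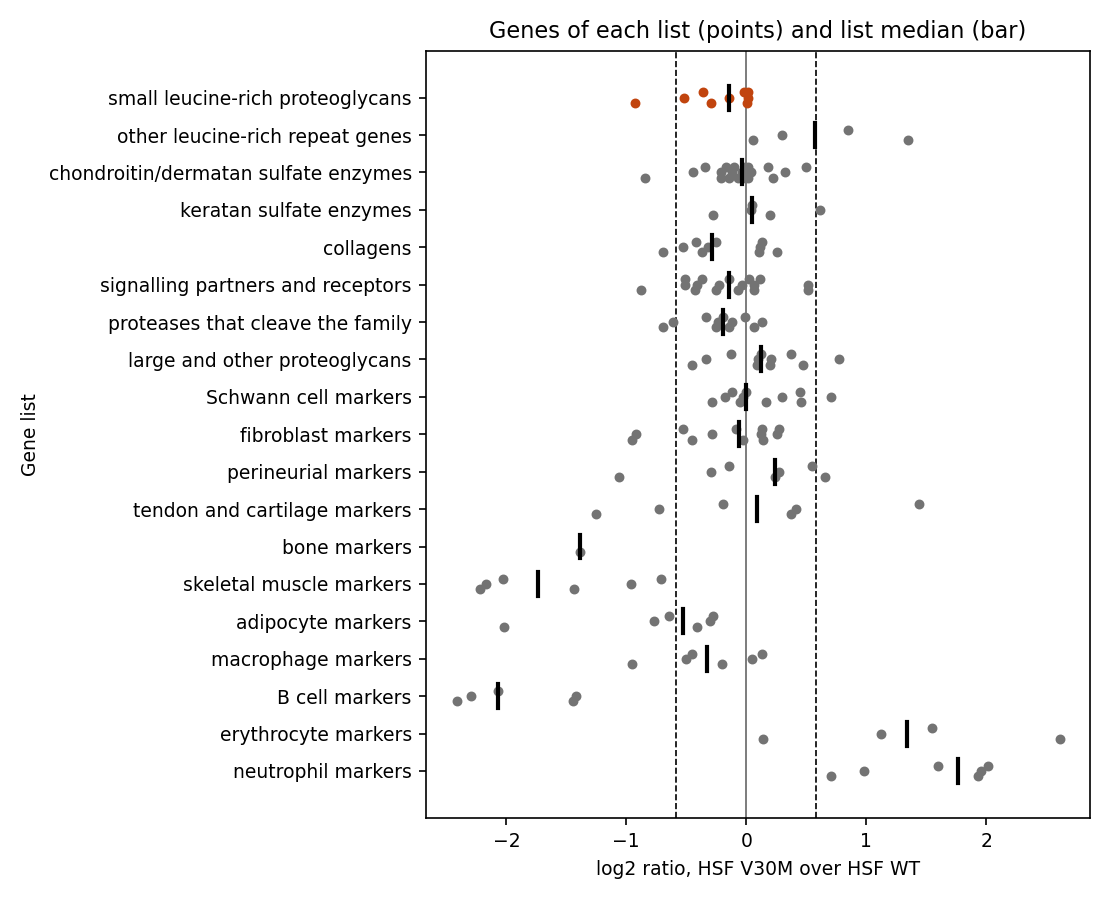
Log2 ratio, HSF V30M relative to HSF WT, for each gene detected in the family (colour) and in 18 other lists (grey), with a bar at the list median and dashed lines at a fold of 1.5. The members lie between -0.93 and 0.01 around a median of -0.15, while the B cell and skeletal muscle medians lie at -2.07 and -1.73 and the neutrophil median at 1.76.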

How the data were processed

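RNA of sciatic nerve was sequenced after standard Ion Torrent library preparation. Reads were aligned by the authors to GRCm38, the C57BL/6J reference, and the groups were compared with Cuffdiff. The submitters' processing notes also name STAR and Cufflinks, and versions, options and annotation are not given in the sources used here. The authors deposited 1 table with an FPKM per gene and group. Its fold changes, test statistics, p-values and q-values are the authors' comparison and were not used. The header is incomplete and decimals are commas, so columns were read by number, and 23 genes without an estimate were left out.

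Log2 ratios used a pseudocount of 1, and detected genes, those at a mean of 1 FPKM or more, were compared at a fold of 1.5. No test was possible with 1 value per group. The members and lists were chosen with earlier results of these data known. A gene of the Schwann cell list is not reported here and was left out of its counts and sums. All 10 members are named, and of the other lists each gene past the fold or among the 3 most abundant, with marker lists given mostly by counts. Xylt2, Chpf2, Tlr2, Tlr4, Egfr, Igf1r, Bmp1, Tnmd, Scx, Matn3 and Bglap were named after their values were seen. Depth was read from low values of single-transcript genes, with settings chosen after the values were seen. With 200 bases taken from the transcript, 1 fragment was worth 0.0389 and 0.0460 FPKM kilobases in HSF V30M, whose values are rounded, and 0.0481 and 0.0647 in HSF WT, the 2 values being read as 1 per library. Of the values from 0.03 to 0.07, 82.8% of 395 and 98.3% of 869 lay in bands of 6% and 2% around these. Fragment numbers run from the shortest to the longest transcript, and intervals and limits cover counting error only. Positions are from GENCODE release M21. The code for the calls and for the worth of 1 fragment was run on simulated data. These data held no spread between mice, only changes well past the fold, and fragment worths like those of HSF WT. That run checked the code and does not check the results given here. Alternatives were the pseudocount, the scaling, the minimum level and the fold. Python 3.11.15, numpy 2.4.6, pandas 2.3.3 and matplotlib 3.10.9 were used.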

Additional observations from a re-analysis of the deposited data

How the results depend on the processing

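No paired analysis was possible because only pooled group values were given, and leave-one-out fits were not run since no mouse has its own column. The log2 ratios of the 9 detected members moved by less than their counting interval with a pseudocount of 0.1, with median-of-ratios scaling and with no pseudocount, the last chosen after seeing the data. Members past the fold in the lower direction numbered 1, Bgn. They numbered 2, Bgn and Aspn, with a pseudocount of 0.1 and with no pseudocount, 0 with a fold over 2, and 0 without Bgn, the last chosen after seeing the data. With a pseudocount of 0.1, 10.8% of all genes were past the fold in the lower direction. No member was past it in the higher direction in any setting run. The median of the members moved by at most 0.1 in each. Over the 18 other lists together, 26 of 149 detected entries were lower and 16 higher past the fold, beside 8.44% and 8.22% of all genes. They were 17 and 10 of 121 at a minimum mean FPKM of 5, beside 6.33% and 7.17%, and 13 and 9 with a fold over 2, beside 3.94% and 3.98%, which are stricter by construction. The lists hold markers chosen with earlier results known. Leaving out Dcn raised the shares by construction, to 22.3% and 31.5% for Bgn in HSF V30M and HSF WT, 26.7% and 24.3% for Ogn, 22.4% and 18.4% for Lum, 19.1% and 18.3% for Prelp, 5.88% and 4.33% for Fmod, 1.15% and 1.28% for Aspn, 1.45% and 1.07% for Ecm2, and 1.07% and 0.809% for Omd. The spread between mice limits every value and is unknown, and depth limits Omd, Aspn and Kera most. The interval of Fmod is wide because it uses the lowest fragment numbers, from a shortest transcript of 532 bases. Its fragments run from 221 to 2295 in HSF V30M and from 156 to 1843 in HSF WT.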

Other observations

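Other proteoglycans of the nerve, a list apart from the family, had ratios on both sides of 0. Of 15 listed genes, 11 reached a mean of 1 FPKM, of which 8 had a positive log2 ratio and 3 a negative one, with a median of 0.12. Sdc3, which encodes the transmembrane proteoglycan syndecan 3, was past the fold of 1.5, with 89.4 FPKM for HSF V30M against 51.8 for HSF WT, a log2 ratio of 0.78. Sdc4, which encodes syndecan 4, had 120 for HSF V30M against 165 for HSF WT, a log2 ratio of -0.45 inside the fold. Hspg2, which encodes the basement membrane proteoglycan perlecan, had 142 and 155. Acan, which encodes the cartilage proteoglycan aggrecan, had 0.06 and 0.0406, and the link protein gene Hapln1 was at 0 in both groups. The values of Acan and Hapln1 were named after they had been seen.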
